A study of Mus musculus with 16 samples.

Results

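The values described here are the change in gene expression from the second hemogenic endothelium population (HE2) to progenitors in Sp1-/- cells, minus the same change in Sp1+/+ cells. This difference between the genotypes' steps, called the interaction below, was computed for every gene from 8 of the 16 arrays of the series, 2 arrays for each of 4 groups. A positive interaction means that a gene went up more, or down less, in Sp1-/- cells than in Sp1+/+ cells. Of 36977 genes tested, 20042 of which carry a gene symbol, 21 were called by an adjusted p no higher than 0.05 with a difference of at least 2-fold, and 665 passed a looser threshold, an unadjusted p of 0.01 or less and 2-fold. The study's methods name a p of 0.01 or less and 2-fold for differences between the genotypes, without saying whether that p was adjusted. They name no interaction. Which genes differ, and in which genotype the step is taken, is the question of the comparison.

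The cells came from mouse embryonic stem (ES) cells differentiated in culture into blood. The Sp1+/+ cells are the wild type E14 line, and the Sp1-/- cells are a knock-out ES line that still makes a shortened Sp1 protein without its DNA-binding domain, so each genotype is 1 line. Both populations were sorted at day 2 of blast culture from floating and adherent cells combined, HE2 as KIT+ CD41+ Tie2+ and progenitors as KIT+ CD41+ Tie2- cells. The labels give the strain of both as C57BL/6. RNA was measured on one-colour Agilent mouse arrays, and values are given on a log2 scale on which 1 unit is 2-fold. The sources describe the 2 arrays of a group both as biological and as technical replicates, so p-values measure only the spread between these arrays.

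Sp1 is a zinc finger factor found in nearly all cells that binds GC-rich sequences in promoters. In the endothelial-to-hematopoietic transition, flat hemogenic endothelial cells turn off adhesion, matrix and endothelial genes, round up and turn on blood genes. Loss of the endothelial receptor Tie2 marks the last step described here, after which cells go on to erythroid, megakaryocytic and myeloid fates.

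The Sp1+/+ arrays shared 1 slide and the Sp1-/- arrays another. A difference between genotypes within a population therefore cannot be told apart from a difference between slides, whereas a constant offset between slides cancels in the interaction. From 67.9 to 74.0% of probes were well above background on each of the 8 arrays, no spot was saturated, and the replicates of a group correlated at 0.9939 to 0.9975 over all genes tested. The number of arrays, 2 a group, limits the precision.

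Binding of Sp1, GATA or TEAD factors to the genes described here, or a part of these factors in the result, was not tested. The promoter sequences of 6 called genes are shown because such factors bind short promoter motifs. Each is the 250 bases before the annotated start in RefSeq, build GRCm38.p6, 5′ to 3′ on the gene's strand. Capitals mark GGGCGG (the GC box bound by Sp1 family factors), AGATAA (bound by GATA factors) and GGAATG (bound by TEAD factors), each searched on both strands, and no match overlapped another. They are the genes with a match among the called genes that have exactly 1 such window.
Rhd, chr4:134864286-134864535 (+ strand): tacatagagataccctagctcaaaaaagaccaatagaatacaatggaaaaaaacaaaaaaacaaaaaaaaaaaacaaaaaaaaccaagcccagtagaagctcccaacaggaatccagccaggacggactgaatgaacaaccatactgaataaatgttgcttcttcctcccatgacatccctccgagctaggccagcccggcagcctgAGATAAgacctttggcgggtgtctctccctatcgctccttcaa
Cpt2, chr4:107923590-107923839 (- strand): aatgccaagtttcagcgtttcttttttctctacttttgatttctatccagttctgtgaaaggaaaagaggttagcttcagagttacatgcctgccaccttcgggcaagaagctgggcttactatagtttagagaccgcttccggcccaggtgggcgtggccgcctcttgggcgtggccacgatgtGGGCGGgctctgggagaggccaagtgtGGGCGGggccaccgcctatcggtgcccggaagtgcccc
Adra2a, chr19:54045009-54045258 (+ strand): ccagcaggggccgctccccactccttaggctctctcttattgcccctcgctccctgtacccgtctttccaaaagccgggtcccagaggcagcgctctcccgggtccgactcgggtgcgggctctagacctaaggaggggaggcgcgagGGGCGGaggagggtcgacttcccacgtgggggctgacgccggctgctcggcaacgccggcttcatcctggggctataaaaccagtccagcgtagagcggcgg
Ankrd1, chr19:36119845-36120094 (- strand): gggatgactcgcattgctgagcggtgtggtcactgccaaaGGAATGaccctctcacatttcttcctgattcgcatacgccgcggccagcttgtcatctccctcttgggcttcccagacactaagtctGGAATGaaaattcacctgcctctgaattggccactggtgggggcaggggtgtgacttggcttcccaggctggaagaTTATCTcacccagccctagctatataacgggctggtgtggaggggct
S1pr3, chr13:51408368-51408617 (+ strand): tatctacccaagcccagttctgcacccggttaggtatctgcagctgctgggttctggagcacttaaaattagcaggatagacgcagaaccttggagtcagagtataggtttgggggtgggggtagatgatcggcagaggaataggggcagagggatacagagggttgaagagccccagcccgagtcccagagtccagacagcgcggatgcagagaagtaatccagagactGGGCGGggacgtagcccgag
Pdgfc, chr3:81036166-81036415 (+ strand): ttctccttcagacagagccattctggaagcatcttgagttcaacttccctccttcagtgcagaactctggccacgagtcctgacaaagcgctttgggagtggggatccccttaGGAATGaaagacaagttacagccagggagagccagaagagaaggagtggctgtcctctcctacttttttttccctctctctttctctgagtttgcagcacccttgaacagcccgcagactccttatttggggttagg

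The GC box starts 65 and 38 bases before the start of Cpt2, 102 before that of Adra2a and 20 before that of S1pr3. The TEAD motif starts 210 and 123 bases before the start of Ankrd1 and 137 before that of Pdgfc. The GATA motif starts 43 bases before the start of Rhd, and that of Ankrd1, at 47 bases, is on the other strand and reads TTATCT. Of all 32851 promoter windows, 32.7% hold a GC box, 9.99% the GATA motif and 12.6% the TEAD motif. A match is a description of letters in the window, not a binding site.

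Sp1 itself checks the labels. Its values were 12.14 and 12.48 in Sp1+/+ HE2, 12.16 and 12.33 in Sp1+/+ progenitors, 9.44 and 10.06 in Sp1-/- HE2, and 9.29 and 9.41 in Sp1-/- progenitors. All 4 Sp1-/- arrays were below all 4 Sp1+/+ arrays, by 2.56 in HE2 (adjusted p = 0.00157) and by 2.90 among progenitors (adjusted p = 0.000687), and the position of the probe relative to the altered part of the gene was not determined. The interaction of Sp1 was -0.34 (95% interval -1.04 to 0.37), that of its relative Sp3 0.07 (-1.15 to 1.28) and that of Sp4 0.10 (-0.345 to 0.545). None of the 24 Sp and Klf family members passed the looser threshold, which 1.8% of all genes passed. Tek, which encodes Tie2, stepped by -1.98 in Sp1+/+ cells (adjusted p = 0.0773) and by -2.73 in Sp1-/- cells (adjusted p = 0.00829). Kit fell by 1.07 in Sp1-/- cells (adjusted p = 0.0181) and stepped by 0.04 in Sp1+/+ cells, although both populations were gated as KIT+, and its interaction of -1.11 did not pass the threshold (adjusted p = 0.19).

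Most of the called genes moved in Sp1-/- cells while staying nearly level in Sp1+/+ cells. A red cell antigen gene, a fatty acid oxidation gene and a homeobox gene had the higher step in Sp1-/- cells. The lower step in Sp1-/- cells was that of the growth factors Pdgfa and Pdgfc, the TEAD1 factor, the metalloprotease gene Adam19, the muscle protein gene Ankrd1, the cell death regulator Bok, the sodium channel gene Scn11a and the receptor gene S1pr3. Of the 21 called genes, 0.0568% of those tested, 13 (0.0352%) had a positive and 8 (0.0216%) a negative interaction. For 20 of them the step itself was called in Sp1-/- cells alone, and for 1, Adra2a, in Sp1+/+ cells alone. Without the 2-fold limit these counts were 17 and 1. Bok (-0.785), Scn11a (-0.645) and Cpt2 (0.485) then also had a Sp1+/+ step, in the direction of their Sp1-/- step. Its adjusted p in limma was 0.0396, 0.0291 and 0.0383. Over all genes tested the step was called for 1921 (5.2%) in Sp1-/- cells and for 450 (1.22%) in Sp1+/+ cells, and the median interaction was 0.015. The p-values were adjusted for each step on its own, which made the Sp1+/+ limit the stricter. In limma the Sp1-/- step of Hbb-bh1 was called at an unadjusted p of 0.00816, and the Sp1+/+ step of Cdh5 was not at 0.00202. At an unadjusted p of 0.01 and 2-fold the counts were 1933 in Sp1-/- and 619 in Sp1+/+ cells.

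Rhd encodes the Rh blood group D protein of the red cell membrane. It measured 6.49 and 6.66 in Sp1+/+ HE2 and 6.89 and 6.87 in Sp1+/+ progenitors, against 7.12 and 6.96 in Sp1-/- HE2 and 9.74 and 9.67 in Sp1-/- progenitors. Only the Sp1-/- progenitors stood out among the 8 arrays, with both values above the other 6 by more than 2 units. The interaction was 2.36 ± 0.14 (SE), and its adjusted p of 0.0247 was the lowest of all genes.

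Lmx1a, a homeobox transcription factor gene known from the developing nervous system, measured 6.22 and 6.01 in Sp1+/+ HE2, 6.57 and 7.01 in Sp1+/+ progenitors, 6.80 and 6.57 in Sp1-/- HE2, and 10.12 and 9.93 in Sp1-/- progenitors. It was not well above background in Sp1+/+ HE2, so the fold of its Sp1+/+ step has a lower bound only, at least 1.6-fold, while its Sp1-/- step was 3.34 (adjusted p = 0.000993). The interaction was 2.67 ± 0.24 (adjusted p = 0.0396), an upper limit for the same reason, and it came to 1.77 (adjusted p = 0.41) with the scanner's processed signal.

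Cpt2 encodes the mitochondrial carnitine palmitoyltransferase needed to burn long-chain fatty acids. It measured 12.54 and 12.42 in Sp1+/+ HE2, 12.94 and 12.99 in Sp1+/+ progenitors, 10.29 and 10.24 in Sp1-/- HE2, and 12 and 12.07 in Sp1-/- progenitors. Here the Sp1-/- HE2 arrays were the low ones, and the genotype difference went from -2.21 in HE2 to -0.93 in progenitors, an interaction of 1.29 ± 0.12 (adjusted p = 0.0396). A second probe for the gene gave 0.46.

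Adra2a, an adrenergic receptor gene, was the called gene that moved in Sp1+/+ cells. Its values were 9.94 and 9.95 in Sp1+/+ HE2, 8.47 and 8.19 in Sp1+/+ progenitors, 9.01 and 9.14 in Sp1-/- HE2, and 9.25 and 9.15 in Sp1-/- progenitors. It fell by 1.61 in Sp1+/+ cells (adjusted p = 0.00357) and stepped by 0.13 in Sp1-/- cells (adjusted p = 0.526), so that the Sp1-/- arrays lay between both Sp1+/+ populations.

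The other named genes with a positive interaction were the cDNA 2900052N01Rik (2.36), the olfactory receptor gene Olfr611 (1.87) and Pdia2 (1.62), of the protein disulfide isomerases that fold secreted proteins. In 2900052N01Rik and Olfr611 the Sp1-/- HE2 arrays were the lowest and the Sp1-/- progenitor arrays the highest of the 8, so that the genotypes changed order between the populations. A second probe of Pdia2 gave 2.02. The 6 called targets without a gene symbol, all positive, had interactions from 1.12 to 2.48. For 2 of these, other probes disagreed, with -0.10 beside 1.33 in 1 and -0.57 to -0.06 in 4 probes beside 1.12 in the other.

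Ankrd1 encodes a muscle ankyrin repeat protein and is a known target of the TEAD factors. It measured 11.86 and 12.12 in Sp1+/+ HE2, 12.38 and 12.32 in Sp1+/+ progenitors, 12.14 and 11.60 in Sp1-/- HE2, and 8.77 and 9.29 in Sp1-/- progenitors. The first 3 groups overlapped or nearly met, and the Sp1-/- progenitors were more than 2 units below all of them, with an interaction of -3.20 ± 0.32 (adjusted p = 0.0474).

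Tead1, the gene of one of the TEAD factors, measured 10.85 and 10.95, then 10.94 and 10.79, in Sp1+/+ HE2 and progenitors. In Sp1-/- cells the HE2 arrays read 11.19 and 11.06, and the progenitor arrays read 9.52 and 9.48. The interaction was -1.59 ± 0.14 (adjusted p = 0.0396), while its other 2 probes gave -0.32 and -0.445 and the mean over probes gave -0.79.

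Both called growth factors signal through the same receptor, PDGF receptor alpha. Pdgfa measured 10.04 and 9.76 in Sp1+/+ HE2, 10.20 and 9.99 in Sp1+/+ progenitors, 9.92 and 9.82 in Sp1-/- HE2, and 8.02 and 8.18 in Sp1-/- progenitors, and a second probe gave an interaction of -1.80 beside the -1.97 of the first. Pdgfc measured 8.10 and 7.90, 8.15 and 8.04, 8.12 and 8.07, and 6.43 and 6.54 in the same order. In both genes 6 arrays lay together and the Sp1-/- progenitors lay below them (adjusted p = 0.0396 for each interaction). The receptor gene Pdgfra stayed between 6.07 and 6.68 on all 8 arrays.

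Adam19, a membrane metalloprotease of the ADAM family, went from 11.05 and 10.57 to 7.74 and 7.77 in Sp1-/- cells and from 11.55 and 11.59 to 11.80 and 11.32 in Sp1+/+ cells, an interaction of -3.05 ± 0.28 (adjusted p = 0.0396). Bok, of the BCL2 family of cell death regulators, went from 9.83 and 9.92 to 6.95 and 7.28 in Sp1-/- cells and from 9.74 and 10.03 to 9.08 and 9.12 in Sp1+/+ cells (interaction -1.98). In both genes the HE2 arrays of the genotypes were closer to each other than the progenitor arrays were.

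S1pr3, a receptor for sphingosine 1-phosphate, and Scn11a, a sodium channel gene, differed between the genotypes mainly in HE2. S1pr3 measured 8.36 and 8.42 in Sp1+/+ HE2, 9.21 and 8.95 in Sp1+/+ progenitors, 9.78 and 9.75 in Sp1-/- HE2, and 8.18 and 8.59 in Sp1-/- progenitors. Scn11a measured 7.96 and 8.11, 7.48 and 7.30, 9.98 and 9.96, and 7.83 and 7.96 in the same order. In each, the Sp1-/- HE2 arrays were the highest of the 8, and the interactions were -2.07 and -1.43 (adjusted p = 0.0474 for both).

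**Figure D1:**
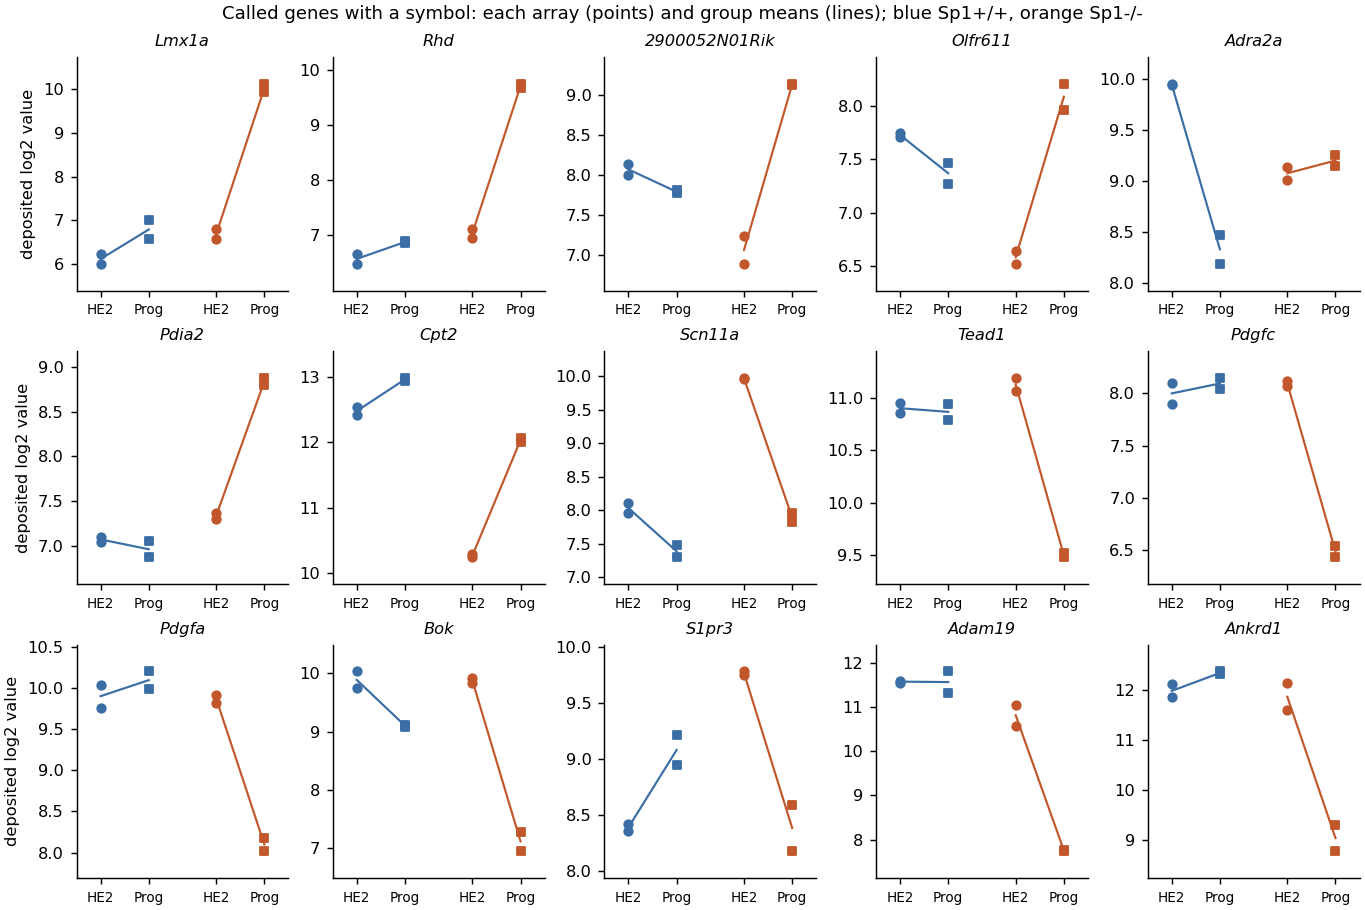
Deposited log2 value (vertical, a scale of its own for each gene) of the 15 named called genes on each of the 8 arrays, with Sp1+/+ in blue and Sp1-/- in orange, points for arrays, and lines joining the means of HE2 and progenitors (Prog). In most panels the Sp1-/- line is the steeper and ends in values apart from the rest, as for Rhd at 9.74 and 9.67 and Ankrd1 at 8.77 and 9.29, and in that of Adra2a the Sp1+/+ line is the steeper.

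The count of 21 depended on the arrays. It ranged from 0 to 309 when 1 array was left out, with 309 without Sp1+/+ HE2 replicate 1, 216 without replicate 2 of that group, 1 without Sp1+/+ progenitor replicate 1, 79 without its replicate 2, 11 and 10 without Sp1-/- HE2 replicate 1 and 2, and 0 without either Sp1-/- progenitor array. A further 22 genes, 12 positive and 10 negative, sat just outside the threshold at an adjusted p of 0.05002, among them Ccn2, Ccn1, Bmp4, Col5a1 and Tnni1. With the other 8 arrays of the series added to the estimate of the spread, 226 genes (0.611%) were called, 12 of the 21 among them, and all 226 were among the 665 of the looser threshold. The named genes of the 21 not called in this limma fit were 2900052N01Rik (adjusted p = 0.312), S1pr3 (0.155), Adra2a (0.116), Olfr611 (0.101) and Pdgfc (0.0672). Some varied more on the added arrays, with 7.65 and 9.28 for 2900052N01Rik and 7.23 and 8.71 for S1pr3 in Sp1-/- HE1, the population before HE2. In that fit too the Sp1-/- step alone was the commonest case, with 196 of the 226 genes against 5 in which the Sp1+/+ step alone was called.

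The looser threshold gave enough genes to describe which genotype moved. Of the 665 genes (1.8% of those tested), 282 (0.763%) were positive and 383 (1.04%) negative, and their adjusted p reached 0.188, so that single genes among them are less certain than the 21. Of the 665, 510 were among the 20042 genes with a symbol. The lists below hold only genes with a symbol, so shares over all genes tested are a low comparison for them. An unadjusted p of 0.01 or less at any size was found for 1952 genes, where 1% of the genes tested is 370. The step was called in Sp1-/- cells alone for 536 of the 665, in Sp1+/+ cells alone for 23, in both the same way for 26, in both opposite ways for 0 and in neither for 80. The step of Sp1-/- cells was the larger in size in 613 of them. Over all genes tested the median size of the step was 0.18 in Sp1-/- and 0.12 in Sp1+/+ cells. The 665 were picked by the difference of the steps, so the count of 613 describes picked genes.

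Among the 282 positive genes the step was a called rise in Sp1-/- cells for 250 and in Sp1+/+ cells for 8, with median steps of 1.46 and 0.185. Among the 383 negative genes it was a called fall in Sp1-/- cells for 301 and in Sp1+/+ cells for 7, with median steps of -1.565 and -0.025, and 30 genes had a called rise in Sp1+/+ cells. Both Sp1-/- progenitor arrays were above the other 6 in 256 of the 282 positive genes (90.8%, against 16.5% of all genes) and below the other 6 in 309 of 382 negative genes with a value on every array (80.9%, against 12.9%). The Sp1-/- HE2 arrays were the lowest in 111 of the positive genes (39.4%, against 6.83%) and the highest in 106 of the negative ones (27.7%, against 8.55%). These shares describe genes that the interaction had already picked. The difference between genotypes, which cannot be told apart from the slide, was called in progenitors alone for 375 of the 665, in HE2 alone for 56, in both for 38 and in neither for 196. Over all genes it was called for 1503 (4.06%) in progenitors, 567 higher and 936 lower in Sp1-/-, and for 644 (1.74%) in HE2, 267 higher and 377 lower, which the scanner's processed signal turned into 1033, 536 higher and 497 lower.

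**Figure D2:**
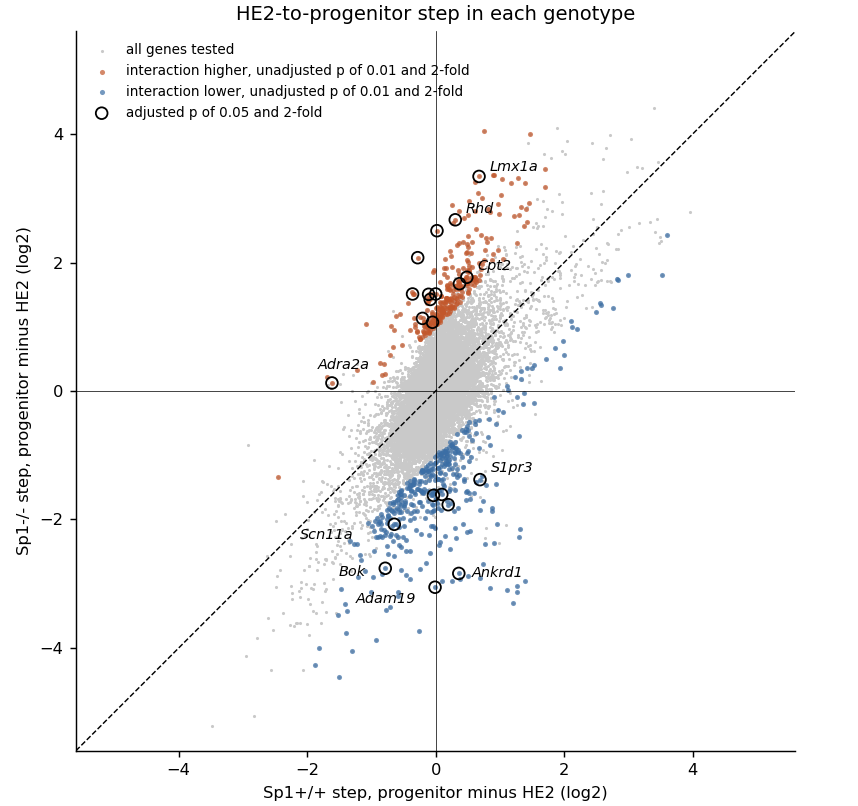
Step from HE2 to progenitor in Sp1+/+ cells (horizontal, log2) against the step in Sp1-/- cells (vertical, log2), with 1 point per gene, all genes in grey, genes past the looser threshold in orange (positive interaction) or blue (negative), and the 21 called genes ringed. Points on the dashed diagonal would have the same step, and the colored genes spread vertically, with 613 of the 665 having the larger step in Sp1-/- cells. The colored genes were picked by the difference of the steps. Over all genes the median step size was 0.18 in Sp1-/- and 0.12 in Sp1+/+ cells.

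Genes of the other classes were few. Nap1l2, of the nucleosome assembly proteins, had a step called in Sp1+/+ cells alone, at 1.30. Its Sp1-/- step of -0.71 went the other way and was short of the 2-fold limit. The calpain protease gene Capn5 also had a step called in Sp1+/+ cells alone, with -1.69 in Sp1+/+ and 0.22 in Sp1-/- cells. Both genotypes moved the same way in Tead2, another TEAD factor (-1.39 and -3.43), in the chemokine gene Ccl6 (3.53 and 1.81) and in Wipf3 (-1.47 and -3.08). Among genes in which neither step was called, the largest interactions were those of Gpat3 (-2.39), Itga9, an integrin (2.13), and Rnd3, a regulator of the actin skeleton (-1.69). The largest interaction of all 665 was that of Igfbp2, an insulin-like growth factor binding protein gene, at -4.51.

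The genes of the red cell made up a group with a positive interaction. Of 17 genes of heme biosynthesis, transport and breakdown, 8 passed the looser threshold upward (0.763% of all genes did) and none downward. Their median interaction was 1.17. Of 23 genes of the red cell membrane and skeleton, 9 passed it upward and none downward, with a median of 1.15, and Rhd alone was among the 21. Heme genes had a called rise in 11 of 17 cases in Sp1-/- cells and in 0 in Sp1+/+ cells, with median steps of 1.77 and 0.45, where 2.5% of all genes rose in Sp1-/- and 0.874% in Sp1+/+ cells. Membrane genes rose in 15 of 23 cases in Sp1-/- and 3 in Sp1+/+ cells, with medians of 2.66 and 0.72.

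Of the heme enzymes, Ppox measured 9.89 and 9.69 in Sp1+/+ HE2, 9.99 and 10.31 in Sp1+/+ progenitors, 10.17 and 10.38 in Sp1-/- HE2, and 12.12 and 12.08 in Sp1-/- progenitors (interaction 1.47, adjusted p = 0.0564). Uros went from 10.72 and 10.75 to 11.33 and 12.11 in Sp1+/+ cells and from 11.30 and 11.15 to 14.00 and 13.97 in Sp1-/- cells (interaction 1.78). Both enzymes act in the chain that builds the porphyrin ring, and so do Alad (1.5) and Cpox (1.52), while Fech (1.17) inserts the iron. Slc25a37, the mitochondrial iron importer, had 2.28, and the biliverdin reductase Blvrb 2.30. Alas2, the erythroid enzyme of the first step, had steps of 1.89 in Sp1+/+ and 4.09 in Sp1-/- cells, but its Sp1+/+ progenitor arrays were apart at 10.65 and 12.23 and its interaction of 2.21 did not pass (adjusted p = 0.209).

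Among the membrane genes the largest value was that of Slc4a1, the band 3 anion exchanger, with 8.31 and 7.58 in Sp1+/+ HE2, 8.03 and 9.37 in Sp1+/+ progenitors, 9.27 and 9.19 in Sp1-/- HE2, and 13.36 and 13.18 in Sp1-/- progenitors. Its Sp1+/+ populations overlapped, and the Sp1-/- progenitors lay almost 4 units above every other array, an interaction of 3.29 (adjusted p = 0.0856). The skeleton genes Add2 (2.54), Dmtn (2.23), Ank1 (2.04), Epb42 (1.45) and Sptb (1.16) followed, with the surface proteins Icam4 (1.76) and Rhag (1.16). The value of Rhag depended on the processing and came down to 0.12 under the alternatives. Tmod1, which caps actin filaments, and the blood group gene Kel did not pass, with interactions of 0.995 and 1.15.

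Globin genes varied more between replicates. Of 11, only Hbq1b passed the threshold (1.86), upward as 0.763% of all genes did, although the list's median interaction was 1.04. Of the 11, 8 rose in Sp1-/- cells and 1 in Sp1+/+ cells, where 2.5% and 0.874% of all genes did. The embryonic globin gene Hba-x measured 14.06 and 11.08 in Sp1+/+ HE2 and 14.58 and 16.83 in Sp1+/+ progenitors, a spread within groups that left its interaction at 0.35 (95% interval -3 to 3.69). Adult globin genes are near-identical copies, and their probes may not tell them apart.

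Few erythroid transcription factors passed the threshold of the interaction. Of 20, only E2f2, a cell cycle factor, passed (1.05), where 0.763% of all genes passed upward, and the list's median interaction was 0.14. Gata1 rose in both genotypes, from 11.29 and 11.17 to 13.83 and 14.66 in Sp1+/+ cells and from 12.90 and 13.25 to 15.60 and 15.67 in Sp1-/- cells, with an interaction of -0.46 (95% interval -1.31 to 0.398). Klf1, the erythroid Krüppel-like factor, rose by 3.21 in Sp1+/+ and 3.47 in Sp1-/- cells, with an interaction of 0.26 (-1.41 to 1.93). These intervals still hold differences of more than 2-fold. Between the genotypes' progenitors, Trim10 (3.04), Klf1 (1.90), Gata1 (1.39) and E2f2 (1.25) were called higher and Myb (-1.03) lower in Sp1-/- cells, a difference that cannot be told apart from the slide. Of 15 iron genes only the ferrireductase gene Steap3 passed (1.06), a count that was 0 without Sp1+/+ progenitor replicate 1, Sp1-/- HE2 replicate 1 or Sp1-/- progenitor replicate 1 and 3 without Sp1+/+ progenitor replicate 2.

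The summed level of a set of 7 erythroid markers, led by the globin genes Hbb-bh1 and Hba-x, lay at 15.66 to 16.89 in Sp1+/+ HE2, 17.97 to 19.12 in Sp1+/+ progenitors, 17.68 to 17.73 in Sp1-/- HE2 and 19.76 on both Sp1-/- progenitor arrays, higher in the progenitors of both genotypes than in HE2, and its part in the result was not tested. In these bulk samples the number of cells of a type and the RNA per cell cannot be told apart. The number of heme genes past the threshold was 5 without Sp1-/- progenitor replicate 2 and otherwise stayed within 1.5 times of 8. The number of membrane genes was 5 without Sp1+/+ HE2 replicate 2, Sp1-/- HE2 replicate 2 or Sp1-/- progenitor replicate 2, 14 without Sp1+/+ progenitor replicate 2, and 3 with the scanner's processed signal, while that of globins was 5 without Sp1+/+ progenitor replicate 2 and 0 without Sp1+/+ HE2 replicate 1, Sp1-/- HE2 replicate 1 or Sp1-/- progenitor replicate 2 and with the processed signal.

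**Figure D3:**
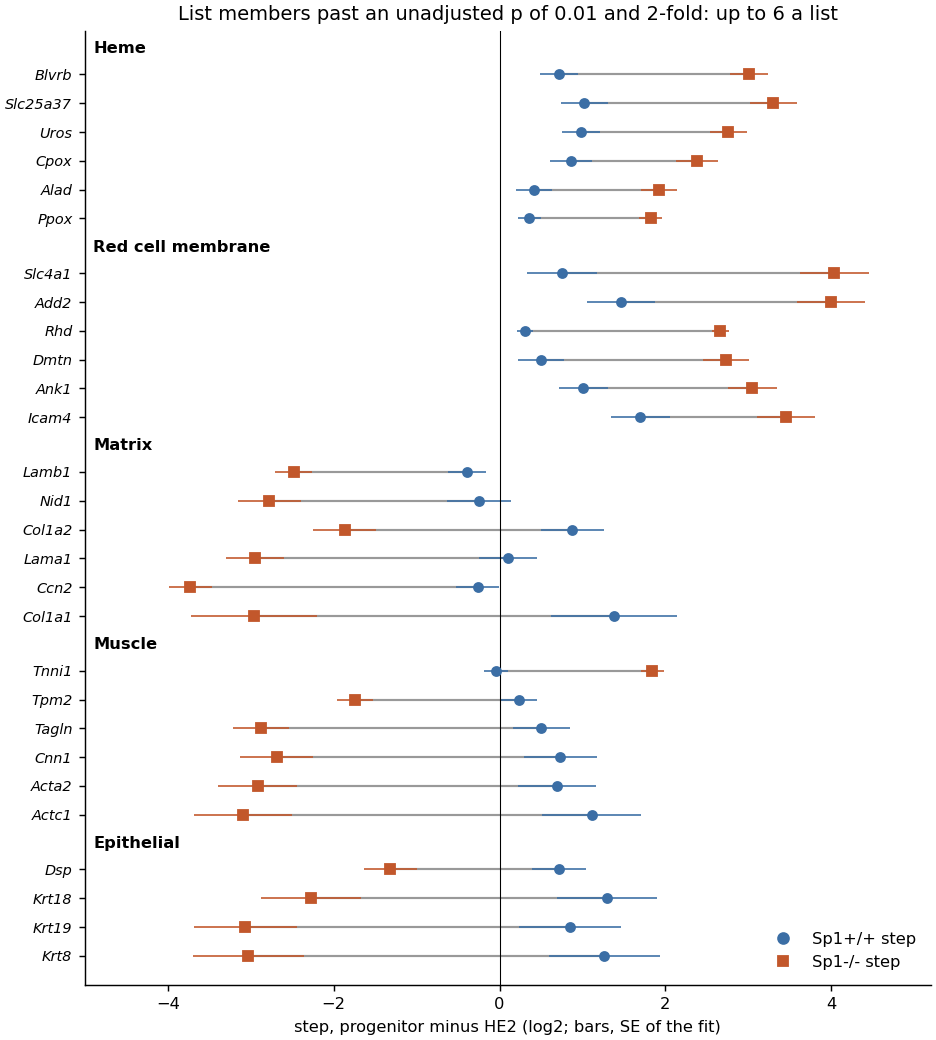
Step from HE2 to progenitor (horizontal, log2) in Sp1+/+ cells (blue circles) and Sp1-/- cells (orange squares), with bars for the SE of the fit and a grey line for the interaction, in up to 6 members of each of 5 lists past the looser threshold, those with the largest interactions. The orange squares lie to the right in heme and red cell membrane genes, as for Slc4a1 (0.755 in Sp1+/+ and 4.04 in Sp1-/- cells), and to the left in matrix, muscle and epithelial genes, as for Ccn2 (-0.265 and -3.73), apart from Tnni1.

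Matrix and contractile genes made up a group with a negative interaction. Of 36 genes of the extracellular matrix and its remodeling, 13 passed the looser threshold downward (1.04% of all genes did) and none upward, with a median interaction of -1.13. Of 21 cardiac and smooth muscle markers 7 passed downward and 1, the troponin gene Tnni1, upward, with a median of -0.88. Matrix genes fell in 22 of 36 cases in Sp1-/- cells and in 2 in Sp1+/+ cells, with median steps of -1.70 and -0.24, where 2.7% of all genes fell in Sp1-/- and 0.343% in Sp1+/+ cells. Muscle markers fell in 11 cases in Sp1-/- cells and in 0 in Sp1+/+ cells.

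Ccn2, a secreted matrix protein gene, measured 12.37 and 12.97 in Sp1+/+ HE2, 12.63 and 12.18 in Sp1+/+ progenitors, 11.97 and 11.69 in Sp1-/- HE2, and 7.86 and 8.34 in Sp1-/- progenitors, an interaction of -3.46 (adjusted p = 0.05002). Its relative Ccn1 went from 11.71 and 11.31 to 9.22 and 9.34 in Sp1-/- cells and from 11.90 and 11.94 to 11.85 and 11.53 in Sp1+/+ cells (interaction -2). Both genes are known targets of the TEAD factors, like Ankrd1. The laminin genes Lama1 (-3.06) and Lamb1 (-2.09) and Nid1 (-2.53), of the basement membrane, and the collagen gene Col1a2 (-2.75) also had negative interactions. With 1 Sp1+/+ HE2 array left out, that of Nid1 ran from -3.19 to -1.86 and that of Col1a2 from -3.31 to -2.19. The value of Nid1 came to -1.18 under the alternatives to the processing.

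Col1a1 had the largest value of the list, -4.35, but its Sp1+/+ HE2 arrays differed by more than 2 units, at 11.80 and 9.12, and its adjusted p was 0.146. Col5a1 differed in HE2 instead. It measured 10.91 and 10.96 in Sp1+/+ HE2, 10.95 and 10.86 in Sp1+/+ progenitors, 12.47 and 12.63 in Sp1-/- HE2, and 10.81 and 11.12 in Sp1-/- progenitors (interaction -1.56, adjusted p = 0.05002). The Sp1-/- HE2 arrays alone stood apart there. Thbs1, a thrombospondin, was the 1 matrix gene past the threshold whose step was called in Sp1+/+ cells, from 11.51 and 11.38 to 12.54 and 12.61, while it stepped by 0.01 in Sp1-/- cells.

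Among the muscle genes, Tagln, an actin-binding protein of smooth muscle, measured 15.78 and 14.80 in Sp1+/+ HE2, 15.94 and 15.65 in Sp1+/+ progenitors, 15.34 and 14.67 in Sp1-/- HE2, and 12.23 and 12.03 in Sp1-/- progenitors (interaction -3.38). Actc1 (-4.21), Acta2 (-3.61), Cnn1 (-3.42) and Tpm2 (-1.98) encode parts or partners of the actin filament. The Sp1+/+ HE2 arrays of Acta2 were apart, at 16.57 and 15.09. With 1 Sp1+/+ HE2 array left out, Actc1 ran from -5.08 to -3.33, Acta2 from -4.35 to -2.87 and Cnn1 from -4.17 to -2.68. Tnni1 went the other way, from 10.45 and 10.89 to 12.49 and 12.54 in Sp1-/- cells, while all 4 Sp1+/+ arrays lay between 10.01 and 10.13 (interaction 1.89). Of 16 epithelial and endoderm markers 4 passed downward (1.04% of all genes did), the keratins Krt8 (-4.29), Krt19 (-3.92) and Krt18 (-3.57) and the desmosome gene Dsp (-2.04). The Sp1+/+ HE2 arrays of Krt8 were apart, at 12.69 and 10.39, and its interaction ran from -5.45 to -3.15 with 1 array left out, that of Krt19 from -4.97 to -2.86 and that of Krt18 from -4.57 to -2.57. Of 20 mesenchyme markers 2 did, the cadherin gene Cdh2 (-1.85) and Hand1 (-2.61), a factor of the heart and extraembryonic mesoderm. This count was 5 without Sp1+/+ HE2 replicate 1 and, of 14 tested, with the processed signal, and 1 without Sp1+/+ progenitor replicate 1, Sp1+/+ HE2 replicate 2 or Sp1-/- progenitor replicate 2.

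Developmental signals followed in smaller numbers, where 1.04% of all genes passed the looser threshold downward. Bmp4, a mesoderm-patterning ligand, measured 13.65 and 13.37 in Sp1+/+ HE2, 13.15 and 12.71 in Sp1+/+ progenitors, 12.78 and 12.40 in Sp1-/- HE2, and 9.34 and 9.58 in Sp1-/- progenitors (interaction -2.55, adjusted p = 0.05002, and -1.17 for the mean over its probes). Tgfb2 had -2.68, and these were the 2 of 27 genes of the BMP and TGF-beta pathway past the threshold. Of 33 Wnt pathway genes 4 passed downward, the ligands Wnt4 (-2.69) and Wnt5a (-1.68) and the receptors Fzd2 (-2.41) and Fzd1 (-1.76), and none upward, but the count was 1 without Sp1+/+ progenitor replicate 1 or Sp1-/- HE2 replicate 1, 2 without either Sp1-/- progenitor array and 7 with the scanner's processed signal.

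The 5 markers of mesenchyme and muscle, taken as 1 sum that is led by Acta2 and Tagln themselves, lay at 15.97 to 17.27 in Sp1+/+ HE2, 17.01 to 17.48 in Sp1+/+ progenitors, 16.08 to 16.79 in Sp1-/- HE2 and 13.49 to 13.61 in Sp1-/- progenitors. The 3 epithelial markers, with Krt8 the brightest, lay at 10.56 to 12.74, 12.65 to 13.06, 11.16 to 11.87 and 8.82 to 9.04 in the same order. Both sums were thus lowest in the Sp1-/- progenitors. Of the mesenchyme and muscle markers, Col1a1, Col3a1, Acta2 and Tagln were called lower in Sp1-/- than in Sp1+/+ progenitors, Col3a1 at 6.84 and 7 against 9.53 and 9.08, and Pdgfra lay between 6.07 and 6.68 on all 8 arrays. Of the epithelial markers, Cdh1 (6.06 and 6.08 against 7.34 and 7.36) and Krt8 were called lower, and Epcam lay between 6.25 and 6.51 on all 8 arrays. The part of such cells in the result was not tested. The count of epithelial genes past the threshold was 0 without replicate 1 of either progenitor group and 1 without Sp1-/- HE2 replicate 1 or Sp1-/- progenitor replicate 2.

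**Figure D4:**
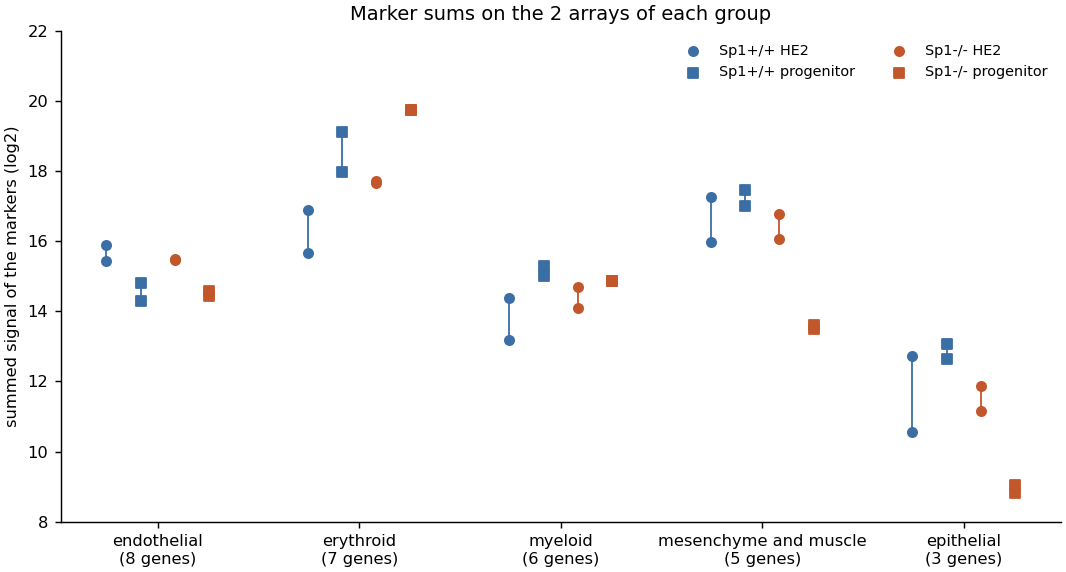
Summed signal (vertical, log2) of 5 marker sets on the 2 arrays of each group, with blue for Sp1+/+, orange for Sp1-/-, circles for HE2 and squares for progenitors, and a line joining the 2 arrays. The mesenchyme and muscle sum is 13.49 to 13.61 in Sp1-/- progenitors and at least 15.97 on the other arrays, while the endothelial sum is 14.29 to 14.81 in Sp1+/+ and 14.43 to 14.58 in Sp1-/- progenitors, led by Kdr in both.

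Among the myeloid genes that differed, the step was called in Sp1+/+ cells alone for Spi1, Cebpd and Cebpe and in both genotypes for Tyrobp and Gfi1. Of 32 myeloid genes 5 passed the looser threshold downward (1.04% of all genes did) and none upward, with a median interaction of -0.35. Of them 16 rose in Sp1+/+ cells and 13 in Sp1-/- cells, where 0.874% and 2.5% of all genes did. Spi1, the myeloid master regulator PU.1, measured 8.09 and 7.65 in Sp1+/+ HE2, 9.14 and 9.07 in Sp1+/+ progenitors, 8.67 and 8.93 in Sp1-/- HE2, and 8.96 and 9.08 in Sp1-/- progenitors. The Sp1-/- HE2 arrays were already close to the level of both progenitor groups (interaction -1.01, adjusted p = 0.121).

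Cxcr2, a chemokine receptor of granulocytes, had the same pattern with 7.35 and 6.93, 8.87 and 8.84, 8.36 and 8.43, and 8.89 and 8.90 in the same order of groups (interaction -1.22), as did Il6ra, a subunit of the interleukin-6 receptor (-1.14). Cebpe, a granulocyte factor gene, differed at the other end, with 6.91 and 6.50 in Sp1+/+ HE2 and 8.51 and 8.61 in Sp1+/+ progenitors, and 6.64 and 6.59 in Sp1-/- HE2 and 7.40 and 7.16 in Sp1-/- progenitors (interaction -1.19). Cebpd behaved likewise (-1.03). Tyrobp, a signalling adaptor, rose in both genotypes, by 3 and 1.8, and Gfi1, a repressor needed when blood cells form from endothelium, fell in both, by 1.26 and 2.38. Of 22 cytokine receptors and ligands 4 passed, all downward (1.04% of all genes did), the receptors Cxcr2 and Il6ra by a Sp1+/+ step and the ligands Csf1 (-1.61) and Cxcl12 (-2.67) by a Sp1-/- step. The count of myeloid genes was 1 without Sp1+/+ HE2 replicate 2, Sp1-/- HE2 replicate 2 or Sp1-/- progenitor replicate 1, 3 without Sp1-/- progenitor replicate 2 and 8 without Sp1+/+ progenitor replicate 1.

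Endothelial genes had negative median steps in both genotypes, and few passed the threshold of the interaction. Of 35 endothelial genes 22 had a called fall in Sp1-/- cells and 4 in Sp1+/+ cells (2.7% and 0.343% of all genes), with median steps of -2.02 and -1.48. In Sp1+/+ cells Cdh5 (-2.005, adjusted p = 0.0586) and Esam (-1.965, adjusted p = 0.0531) fell without being called. The median interaction was -0.50, and 3 passed the threshold of the interaction, which 0.763% of all genes passed upward and 1.04% downward. Without Sp1+/+ HE2 replicate 2 or Sp1+/+ progenitor replicate 2, 7 passed it downward. Lyve1 fell by 2.46 in Sp1+/+ cells, from 10.91 and 11.20 to 8.85 and 8.35, and by 1.34 in Sp1-/- cells, from 8.03 and 8.17 to 6.64 and 6.88, while Vwf (1.05) and Ecscr (-2.18) went opposite ways. The endothelial marker sums were 15.45 to 15.89 and 14.29 to 14.81 in Sp1+/+ HE2 and progenitors, and 15.47 to 15.49 and 14.43 to 14.58 in the Sp1-/- populations, and those of progenitors were led by Kdr, the receptor gene for vascular endothelial growth factor, whose genotype difference in progenitors was 0.57. The other 7 markers had lower means in Sp1-/- than in Sp1+/+ progenitors, with Esam (-2.67, adjusted p = 0.00675), Cdh5 (-2.40, adjusted p = 0.0117) and Tie1 (-1.09, adjusted p = 0.0243) called. This difference cannot be told apart from the slide. Of 24 megakaryocyte genes Pf4 (1.53) and Vwf passed upward and Thbs1 (-1.12) downward, where the upward count was 0 without Sp1+/+ progenitor replicate 1 or Sp1-/- HE2 replicate 1 and 5 without Sp1+/+ progenitor replicate 2.

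The other lists held few such genes, and with 1 array left out the counts of these short lists ran down to 0, other than those of the pluripotency genes and the upward stem and progenitor gene. Over all genes 0.763% passed upward and 1.04% downward. Of 24 stem and progenitor regulators, Hopx (1.47) passed upward and Erg (-1.11) and Gfi1 downward, and of 18 pluripotency genes Lin28a (-1.26) and Dnmt3b (-1.07) downward. The homeobox gene Hoxb7 (1.92) was the 1 of 39 Hox genes (3 without Sp1+/+ progenitor replicate 1), Mcpt4 (1.06) the 1 of 11 mast cell markers and E2f2 the 1 of 42 genes of the cell cycle. None of 18 Notch and arterial genes, 25 genes of the integrated stress response, 24 of cholesterol synthesis and 24 of glycolysis passed.

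**Figure D5:**
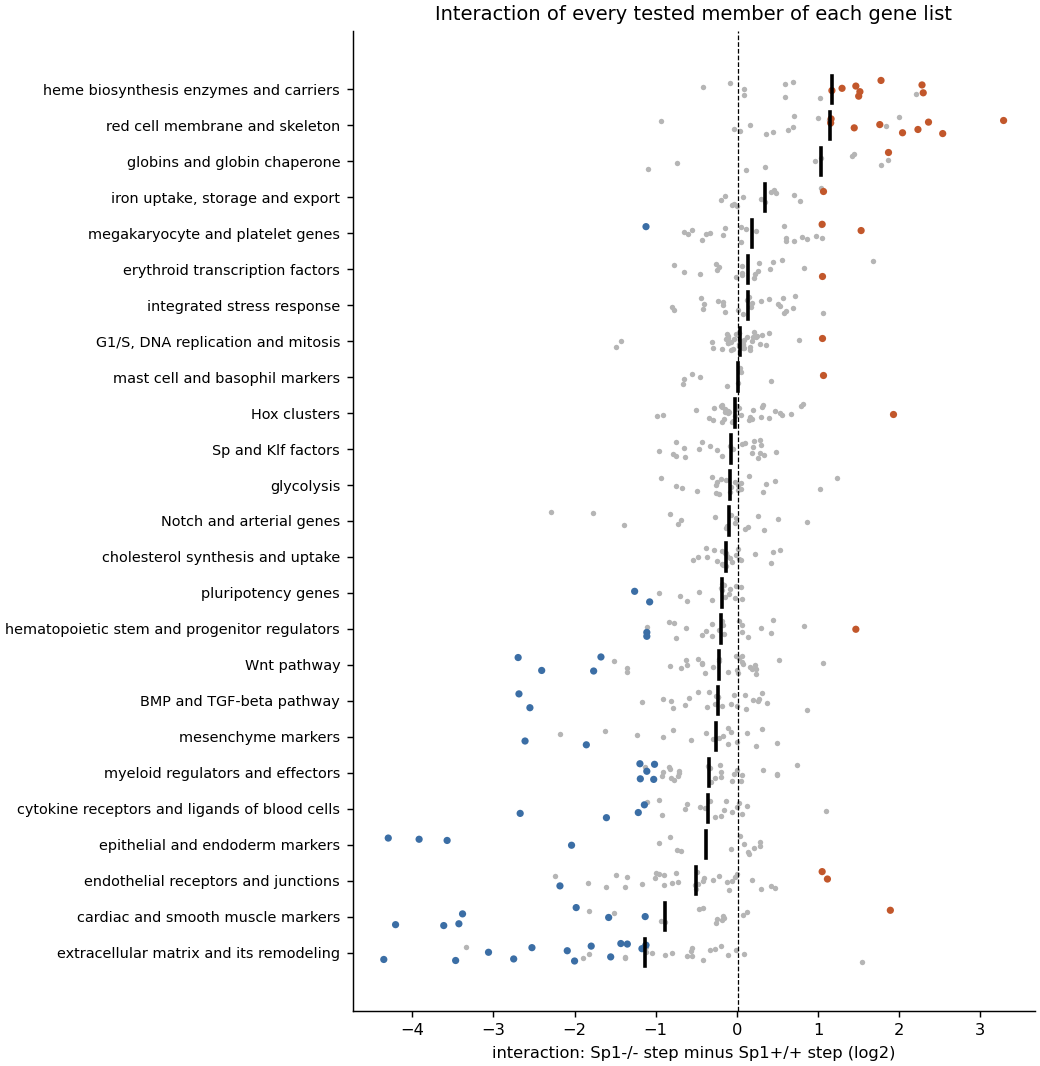
Interaction (horizontal, log2) of every tested member of the 25 gene lists, 1 point per gene, with members past the looser threshold in orange (positive) or blue (negative), other members in grey, a black bar at each list's median and a dashed line at the median of all genes. Heme (8 of 17) and red cell membrane genes (9 of 23) lie on the positive side, matrix (13 of 36) and muscle genes (7 of 21) on the negative side, and the medians of the glycolysis and cell cycle lists near 0.

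Promoter windows were at hand for 141 of the 282 positive and 233 of the 383 negative genes. The GC box was found for 55.3% of the positive, 63.5% of the negative and 49.2% of all tested genes with a window. The GATA motif was found for 12.8%, 9.87% and 9.99% of the same genes, and the TEAD motif for 15.6%, 21.9% and 13.3%. These shares were not tested, and genes with several starts have more windows, with 334 windows for the 233 negative genes.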

How the data were processed

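The authors deposited the scanner output of each one-colour array and a table of log2 values. Their methods name limma, with quantile normalisation after normexp (offset 16), whereas the deposited log2 values match the deposited median intensities treated with an offset of 50 to within 0.005 (an offset of 16 differs by up to 1.626). Intensities and their flags were used for signal over background and for alternatives. Probes spotted more than once were averaged, targets reaching a log2 value of 6 on at least 1 of the 8 arrays were kept, and the brightest probe stood for a gene. Of 37932 target names, 20881 matched a RefSeq gene of GRCm38.p6, and coordinates in target names are of an older build. limma 3.58.1 (R 4.3.3) fitted 4 groups, with Benjamini-Hochberg adjustment over all genes tested, and was tested on simulated data. Steps were called by an adjusted p no higher than 0.05 with a 2-fold limit. Every called gene with a symbol is named, and, for lists and classes, the largest members past the looser threshold. Some list members named beyond 4 a list were chosen with their values known. Some genes under these rules are not reported here. Members and lists were chosen with earlier results of these data known. Alternatives changed background correction, scaling, filter, probe choice, arrays in the fit, replicate block and thresholds.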

Additional observations from a re-analysis of the deposited data

Results flagged for a closer look

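The step from HE2 to progenitors differed between the genotypes for 21 genes by the test of the difference itself (limma, adjusted p between 0.0247 and 0.0474, 2 arrays a group). The step was the more positive in Sp1-/- cells for Lmx1a (2.665), Rhd (2.36), 2900052N01Rik (2.355), Olfr611 (1.87), Adra2a (1.74), Pdia2 (1.615) and Cpt2 (1.285). The same held for 6 targets without a gene symbol. These are the unnamed transcripts ENSMUST00000112775 (1.51), NR_002873 (1.51) and XM_621386 (1.30), and 3 targets named by position on chromosomes 4 (2.475), 19 (1.335) and 2 (1.12). It was the more negative for Scn11a (-1.43), Tead1 (-1.59), Pdgfc (-1.705), Pdgfa (-1.965), Bok (-1.975), S1pr3 (-2.07), Adam19 (-3.045) and Ankrd1 (-3.20). All 21 kept their sign under each of 16 alternatives, of which no filter, the background filter, the replicate block and the 16-array fit leave a gene's value as it is. Leaving out 1 array moves a value only within the gap between replicates, and these genes were picked partly for close replicates. A kept sign with 1 array left out is therefore no support for them. Rhd passed the threshold under 10 of these 16, the most of any, and its value ran from 2.275 to 2.445 when 1 array was left out, while that of Ankrd1 ran from -3.47 to -2.93. With the mean over probes, the target on chromosome 2 came down to 0.038, that on chromosome 19 to 0.62 and Tead1 to -0.785. With the processed signal, Lmx1a came down to 1.768, while Pdgfc went to -3.136, Olfr611 to 2.881, NR_002873 to 2.362 and XM_621386 to 2.17.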

How the results depend on the processing

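The count of 21 genes became 0 with an offset of 16 and with the scanner's processed signal, 1 with no background correction, 43 with the mean over probes, 226 with all 16 arrays in the fit, 0 at an adjusted p of 0.01 and 665 at an unadjusted p of 0.01, and ran from 0 to 309 with 1 array left out. Of these genes, the step was called in Sp1-/- cells alone for 0, 0, 1, 38, 196, 0 and 519, and for 0 to 167 with 1 array left out, and in Sp1+/+ cells alone for 0, 0, 0, 2, 5, 0 and 24, and for 0 to 60. For the last 2 counts steps were read at an unadjusted p of 0.01 as well. With the replicate number as a block, the count and both of these were 0. Between groups, deviations from the group means on arrays of the same replicate number correlated at -0.176 to 0.149. With 2 arrays a group this cannot settle whether replicate numbers pair the samples. At the looser threshold the alternatives to the values and the 16-array fit gave 526 to 916 genes in place of 665, and the block 661. The cause of these changes was not tested.

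The 665 genes of the looser threshold ran from 481 to 850, and the 536 with a Sp1-/- step alone from 311 (without Sp1+/+ progenitor replicate 1) to 686, with 1 array left out, where a lone array is assumed to vary like the others. The processed signal gave 2990 called Sp1-/- steps, and genotype differences of 1033 in HE2 and 2293 in progenitors. An adjusted p of 0.01 gave 157 Sp1+/+ steps and 387 differences in HE2. Without the 2-fold limit an adjusted p of 0.05 gave 1057 Sp1+/+ and 6741 Sp1-/- steps, and 2088 and 5626 genotype differences in HE2 and progenitors. With 1 array left out, the Sp1+/+ steps numbered 165 (without Sp1+/+ progenitor replicate 2) to 781 (without Sp1+/+ HE2 replicate 1), the Sp1-/- steps 1527 to 1983, the HE2 differences 434 to 844 and the progenitor differences 982 (without Sp1-/- progenitor replicate 1) to 1634.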

Other observations

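Genotype differences within HE2 cannot be told apart from the slide. Of the genes past the looser threshold with a genotype difference called in HE2 and not in progenitors, 2 with large interactions not described above were Rph3a and Usp51, chosen after their values were seen. Usp51, a ubiquitin protease gene, measured 9.15 and 8.74 in Sp1+/+ HE2, 9.41 and 9.88 in Sp1+/+ progenitors, 7.69 and 7.61 in Sp1-/- HE2, and 10.18 and 9.97 in Sp1-/- progenitors (interaction 1.73, adjusted p = 0.0711), so its low values were those of Sp1-/- HE2. Rph3a measured 7.02 and 6.73, 6.93 and 7.71, 8.40 and 9.23, and 7.5 and 7.32 in the same order (interaction -1.85, adjusted p = 0.149).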
